A study of Mus musculus with 12 samples.

Results

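The super elongation complex and the kinase P-TEFb, which together drive paused RNA polymerase II into productive elongation, were followed over the first hours of retinoic acid (RA) exposure in KH2, a line of mouse embryonic stem cells. The members were 10 genes: the scaffold genes Aff1, Aff3 and Aff4, the elongation factor genes Ell, Ell2 and Ell3, the kinase gene Cdk9, the cyclin genes Ccnt1 and Ccnt2, and the inhibitor gene Hexim1. They were found as all probe sets that the array platform's annotation assigns to one of these symbols alone, which gave 23 probe sets for 9 of the 10 genes, of 45037 probe sets tested. Ccnt2 had 5 probe sets, Aff1 and Aff4 had 3 each, and Aff3, Ell, Ell2, Cdk9, Ccnt1 and Hexim1 had 2 each. Ell3 had none of its own: 1 probe set is assigned to both Serinc4 and Ell3, and it is described but not counted.

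The study profiled gene expression on Affymetrix mouse arrays in 4 groups of 3 samples, replicates A, B and C: no RA, and 2, 4 and 6 h of RA at 0.3 µM. All groups were KH2 cells grown on feeder cells. The protocols describe RA as given in a differentiation medium of DMEM, serum and non-essential amino acids, and do not say that untreated cells were moved to that medium, so RA and medium cannot be told apart. After exposure the cells were trypsinised and replated on gelatin for 30 min, and 1 protocol describes collecting the cells that attached while another describes spinning down the removed medium. The labels leave unsaid whether replicates A, B and C came from separate cultures. The p-values therefore speak of the spread among the samples at hand, possibly a technical one. In such bulk RNA, fewer cells of a type and less RNA per cell cannot be told apart.

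Polymerase II halts shortly after initiation on many genes, and is released when P-TEFb, the kinase CDK9 with cyclin T1 or T2, phosphorylates the polymerase and the pausing factors. HEXIM1 holds part of P-TEFb inactive on the 7SK RNA. AFF scaffold proteins bring active P-TEFb together with an ELL factor and a YEATS-domain protein (AF9 or ENL) in the super elongation complex, which in embryonic stem cells is known for rapid induction of genes by signals, RA among them.

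The array medians of the deposited log2 signal lay between 6.05 and 6.10, and 6.07 was the median of all values. The RA response genes Cyp26a1 and Hoxb1 were higher at each RA time, at 2 h by 6.11 ± 0.09 and 2.93 ± 0.17 on the log2 scale (SE), with untreated values under that median. All 8 embryonic stem cell markers lay above the median on every array, with array means between 12.7 and 13.0. At 2 h 1 of them was higher than in untreated cells (Nanog, by 0.48 ± 0.08), and 4 (Esrrb, Sox2, Tdgf1 and Zfp42) were lower at 4 and at 6 h. Of the 9 measured feeder fibroblast markers 6 lay above the median on every array and 2 below it on every array. Their mean log2 level was 7.45, 8.06 and 6.97 in untreated replicates A, B and C, 7.87 to 8.02 at 2 h, 7.76 to 8.02 at 4 h and 7.65 to 7.90 at 6 h, and none was called against no RA. Of 8 primitive endoderm markers 1 was higher (Gata6) and 1 lower (Dab2) at 4 and at 6 h, and of 5 trophoblast markers 1 was higher (Eomes). The mean log2 level of the endoderm markers was 7.45, 7.61 and 7.09 in untreated replicates A, B and C. Among them Sox7 read 8.26, 8.50 and 5.97 there and 7.63 to 8.58 on the RA arrays, and was not called against no RA. Untreated replicate C stood apart: it correlated with untreated replicates A and B at 0.993, while A correlated with B at 0.997 and the replicates within each RA group at 0.997 to 0.998, and the weight limma estimated for it was 0.251, against 0.805 to 1.86 for the other arrays. The part of these markers and of that array in the member results was not tested, except where values without the array are given.

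A probe set was called at a limma adjusted p (Benjamini-Hochberg over all probe sets) under 0.05. Of the 23 member probe sets 17 lay above 6.07 on all 12 arrays. Those below it on all arrays were 1 probe set each of Aff1 (1425641_at), Aff3 (1430435_at), Aff4 (1458959_at) and Ell2 (1458569_at), whose values may be largely background, which was not tested. At 2 h, 1 member probe set was called, as lower than in untreated cells, against 1.81% of all probe sets called in either direction and 0.906% called lower. At 4 h, 7 were called, 2 higher and 5 lower, against 18.7% of all probe sets (9.34% higher and 9.36% lower). At 6 h, 7 were called, 3 higher and 4 lower, against 20.6% (10.8% higher and 9.83% lower). Of all probe sets with a mean above 6.07, 30.5% were called at 4 h and 33.6% at 6 h, and of the 19 member probe sets with such a mean 7 were called at each time.

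The median log2 difference from untreated cells over the 23 probe sets was -0.0031 at 2 h, -0.06 at 4 h and -0.09 at 6 h, beside 0.0082, 0.0057 and -0.01 over all probe sets. The arrays did not overlap between RA-treated and untreated cells for 8 member probe sets at each of 2, 4 and 6 h, against 19.9%, 30.9% and 32.4% of all probe sets. Under the F test over the 4 groups, 9 member probe sets of 5 genes were called (Aff1, Aff3, Ell2, Ccnt2 and Hexim1), against 25.9% of all. The comparisons against no RA share the untreated arrays. The called falls against no RA were those of Aff1, Aff3, Ell2 and Ccnt2 probe sets, and the called rises those of Hexim1 and Ccnt2 probe sets.

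**Figure D1:**
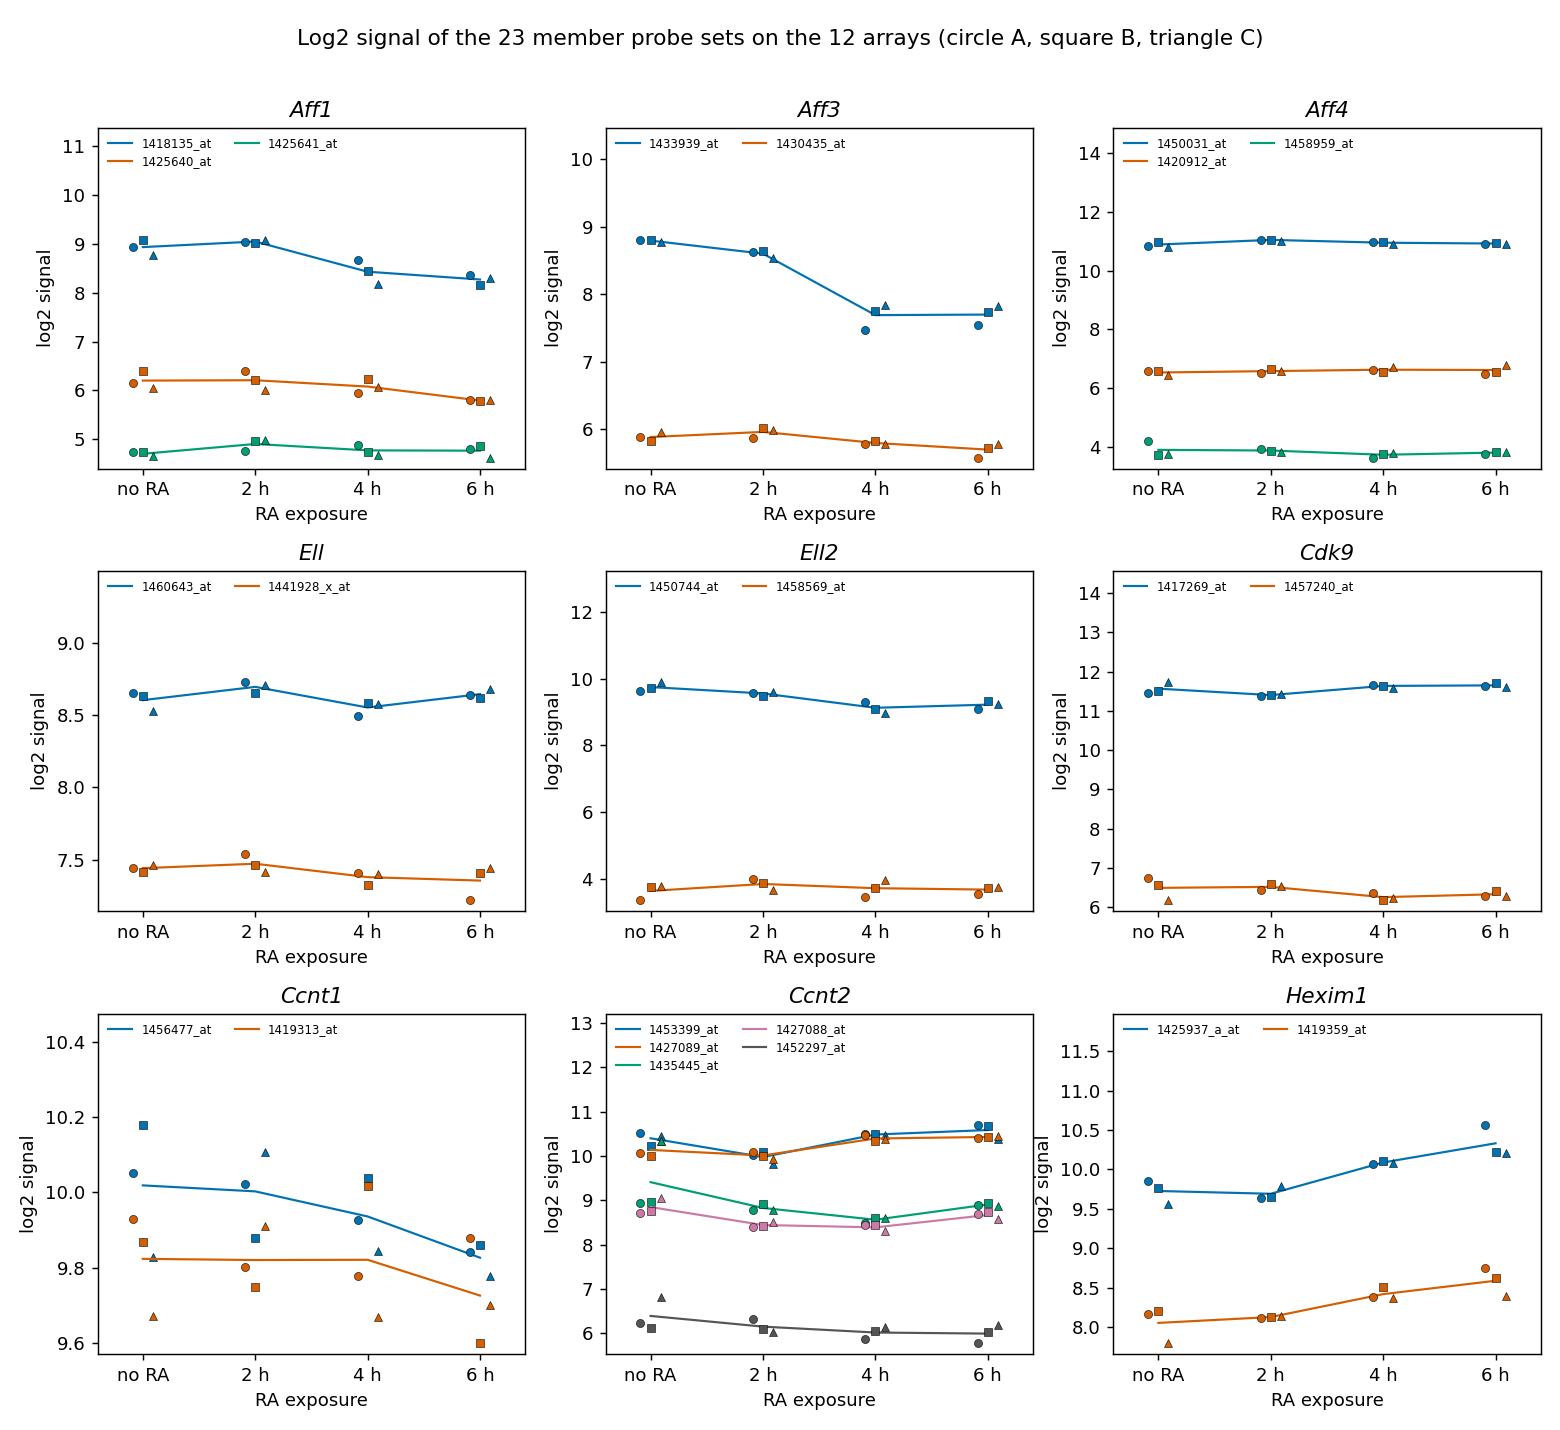
Log2 signal on every array for the 9 measured genes, 1 panel a gene and 1 colour a probe set; the x axis gives RA exposure, the scale of the y axis differs between panels, points are arrays and lines join group means. The upper probe sets of Aff3, Aff1 and Ell2 sit lower at 4 and 6 h than without RA, those of Hexim1 sit higher, and 1 Ccnt2 probe set (1435445_at) has an untreated array at 10.33 against 8.93 and 8.96 on the others.

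Aff3 encodes an AF4-family scaffold (LAF4) that is found in a P-TEFb complex related to the super elongation complex, and its main probe set had the largest difference of any member probe set. Probe set 1433939_at read 8.80, 8.81 and 8.77 in untreated replicates A, B and C, 8.63, 8.64 and 8.54 at 2 h, 7.48, 7.75 and 7.85 at 4 h, and 7.54, 7.74 and 7.82 at 6 h. All 6 arrays of 4 and 6 h lay below all 6 of the earlier times, and the 2 h arrays lay just below the untreated ones. Aff3 fell by 1.11 ± 0.10 at 4 h and by 1.10 ± 0.10 at 6 h on the log2 scale against no RA (SE, n = 3 each), 2.15-fold and 2.14-fold lower, with limma adjusted p = 1.93e-05 and 1.51e-05. At 2 h the difference was -0.19 ± 0.10 (adjusted p = 0.374). Both calls held under all 24 alternatives, with values between -1.18 and -0.60 at 4 h and between -1.16 and -0.64 at 6 h, the smallest from averaging the gene's probe sets. The dim probe set 1430435_at lay between 5.58 and 6.02 on all arrays and was not called against no RA at any time.

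The RefSeq window of Aff3 from 250 bases before to 50 after the annotated start is shown because Aff3 had that difference. It lies at chr1:38627195-38627494 on the minus strand of GRCm38.p6, has 83.3% G and C and 54 CpG, and carries no capitals since none of the motifs given below was found in it.
Aff3: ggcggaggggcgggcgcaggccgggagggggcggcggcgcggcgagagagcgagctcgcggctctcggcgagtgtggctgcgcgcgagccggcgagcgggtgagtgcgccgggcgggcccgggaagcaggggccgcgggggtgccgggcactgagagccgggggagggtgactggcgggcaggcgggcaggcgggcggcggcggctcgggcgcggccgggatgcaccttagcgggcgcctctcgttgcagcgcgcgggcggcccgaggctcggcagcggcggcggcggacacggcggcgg

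Aff1, the gene of the AF4 scaffold, fell at 4 and 6 h. Probe set 1418135_at read 8.94, 9.09 and 8.77 in untreated replicates A, B and C, 9.04, 9.02 and 9.07 at 2 h, 8.67, 8.44 and 8.17 at 4 h, and 8.35, 8.16 and 8.29 at 6 h. The 2 h arrays lay within the untreated range, while every 4 and 6 h array lay below it. Aff1 fell by 0.50 ± 0.12 at 4 h (1.42-fold lower, adjusted p = 0.0096) and by 0.66 ± 0.12 at 6 h (1.58-fold lower, adjusted p = 0.00156), and the difference at 2 h was 0.11 ± 0.12 (adjusted p = 0.684). The 4 h call was lost when only the 2 groups compared were fitted (adjusted p = 0.0597) and when the gene's probe sets were averaged (-0.19, adjusted p = 0.085). The averaged value at 6 h was -0.34.

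A second Aff1 probe set, 1425640_at, near the array median, read 6.16, 6.40 and 6.05 in untreated cells and 5.80, 5.78 and 5.80 at 6 h; it was called at 6 h (-0.41 ± 0.11, adjusted p = 0.0218) and at no other time against no RA. The 6 h arrays lay below all untreated ones. Leaving out untreated replicate B ended that call (-0.31, adjusted p = 0.0881), as did leaving out any 1 of the 6 h arrays (adjusted p = 0.053 to 0.0644). The third probe set, 1425641_at, stayed between 4.63 and 4.99 and was not called.

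RefSeq gives Aff1 a pair of windows, and the first, at chr5:103753912-103754211 on the plus strand of GRCm38.p6, is shown for comparison with Aff3. It has 77.3% G and C and 40 CpG, and it too has no match to a motif searched and so no capitals.
Aff1: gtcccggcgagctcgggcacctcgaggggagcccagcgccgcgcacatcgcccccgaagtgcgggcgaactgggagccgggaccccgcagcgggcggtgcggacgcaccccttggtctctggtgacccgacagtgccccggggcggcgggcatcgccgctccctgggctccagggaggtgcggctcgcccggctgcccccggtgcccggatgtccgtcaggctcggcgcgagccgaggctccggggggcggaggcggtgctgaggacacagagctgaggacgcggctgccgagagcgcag

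Aff4, the scaffold gene of the same family whose product is the core of the super elongation complex in many cells, was not called in any of the 6 comparisons. Its bright probe set 1450031_at read 10.85, 10.99 and 10.82 in untreated cells, 11.06, 11.06 and 11.03 at 2 h, 10.98, 10.96 and 10.92 at 4 h and 10.91, 10.94 and 10.92 at 6 h. The 2 h arrays lay above all others, by 0.16 ± 0.06 over no RA (adjusted p = 0.253). The other Aff4 probe sets differed from untreated cells by -0.17 to 0.10 at any time.

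**Figure D2:**
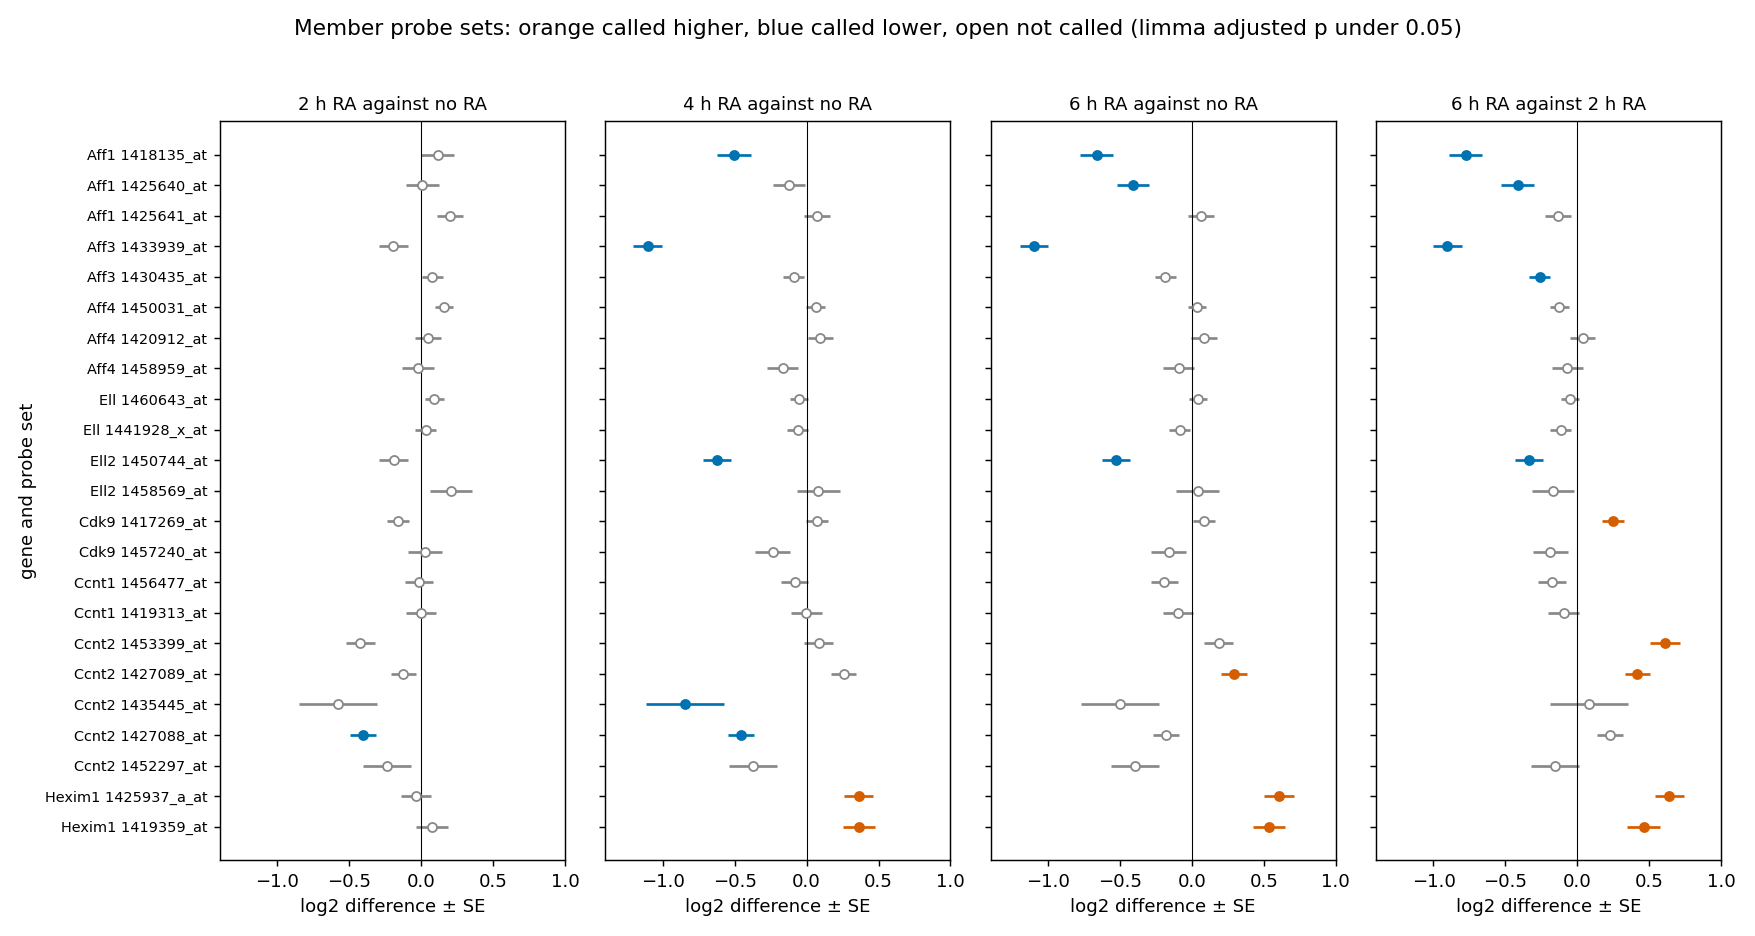
Log2 difference of group means with its SE for the 23 member probe sets, in 4 panels for 2, 4 and 6 h of RA against no RA and for 6 h against 2 h of RA; filled points passed the limma adjusted p threshold of 0.05. The Aff3 probe set 1433939_at lies at -1.11 and -1.10 at 4 and 6 h, and the Hexim1 probe sets lie at 0.36 and 0.37 at 4 h and 0.61 and 0.54 at 6 h.

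Ell2 encodes an ELL elongation factor that raises the catalytic rate of polymerase II and joins AFF scaffolds. Probe set 1450744_at read 9.65, 9.71 and 9.89 in untreated replicates A, B and C, 9.59, 9.48 and 9.61 at 2 h, 9.31, 9.09 and 8.98 at 4 h, and 9.10, 9.32 and 9.25 at 6 h. All 4 and 6 h arrays lay below all untreated and 2 h arrays. Ell2 fell by 0.62 ± 0.10 at 4 h (1.54-fold lower, adjusted p = 0.000909) and by 0.53 ± 0.10 at 6 h (1.44-fold lower, adjusted p = 0.00224), with -0.19 ± 0.10 at 2 h (adjusted p = 0.379). Averaged with the dim probe set 1458569_at, the value was -0.27 at 4 h (adjusted p = 0.0438) and -0.24 at 6 h, where the call was lost (adjusted p = 0.061). The dim probe set alone lay between 3.34 and 3.99 on all arrays.

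The Ell2 window, chr13:75707234-75707533 on the plus strand of GRCm38.p6, is shown as the only member window that holds the cyclic AMP response element TGACGTCA. Capitals mark that element, which begins at position -198 from the start, and CCAAT boxes beginning at -229, -76 and -46.
Ell2: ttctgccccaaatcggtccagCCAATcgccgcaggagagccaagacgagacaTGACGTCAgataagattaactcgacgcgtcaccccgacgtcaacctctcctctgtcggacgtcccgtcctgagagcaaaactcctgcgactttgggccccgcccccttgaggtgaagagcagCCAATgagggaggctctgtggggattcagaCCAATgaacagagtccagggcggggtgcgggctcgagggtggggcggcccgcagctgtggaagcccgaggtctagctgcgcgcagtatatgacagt

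Ell, the founding ELL gene, differed from no RA by -0.09 to 0.09 on its 2 probe sets at 2, 4 and 6 h, and neither was called in any comparison. Probe set 1460643_at lay between 8.49 and 8.73 and 1441928_x_at between 7.22 and 7.54 on all arrays. For Ell3, an ELL factor known in embryonic stem cells for binding enhancers, the only value is that of the probe set shared with Serinc4 (1442514_a_at). It read 8.53, 8.74 and 9.01 in untreated cells, 8.65, 8.73 and 8.58 at 2 h, 7.93, 7.95 and 7.94 at 4 h, and 8.14, 8.05 and 7.93 at 6 h. Every 4 and 6 h array lay below every earlier array. The shared probe set fell by 0.82 ± 0.11 at 4 h and by 0.72 ± 0.11 at 6 h (adjusted p = 0.000232 and 0.000446), and which of the 2 genes it reports cannot be told apart here.

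Cdk9, the kinase subunit, showed no called difference from no RA. Its bright probe set 1417269_at read 11.47, 11.50 and 11.73 in untreated cells, 11.38, 11.40 and 11.43 at 2 h, 11.67, 11.64 and 11.59 at 4 h, and 11.63, 11.72 and 11.59 at 6 h. The 2 h arrays lay below all others, and untreated replicate C was the highest array of all. The bright probe set rose by 0.25 ± 0.08 at 6 h over 2 h of RA (adjusted p = 0.0334). That call was lost without any 1 of the 2 h arrays or without 6 h replicate A or B (adjusted p = 0.067 to 0.115). It was also lost with the replicate block (adjusted p = 0.0508) or with quantile normalization (adjusted p = 0.0554). On averaging with the dimmer probe set the difference was close to 0 (0.03, adjusted p = 0.752). At 4 against 2 h of RA the bright probe set differed by 0.23 ± 0.08 (adjusted p = 0.0546) and was not called. It was called there in 8 of 24 alternatives, including the looser threshold of 0.10 and the fit without untreated replicate C (adjusted p = 0.0124). The values over the 24 ran from -0.01 to 0.25. The dimmer probe set 1457240_at ran the other way over the 12 arrays (Pearson r = -0.70 between them); its differences from no RA were -0.24 ± 0.12 at 4 h and -0.16 ± 0.12 at 6 h. With untreated replicate C left out these were -0.40 (adjusted p = 0.00685) and -0.32 (adjusted p = 0.0177), both past the threshold.

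Ccnt1, the gene of cyclin T1, was not called in any comparison. Probe set 1456477_at read 10.05, 10.18 and 9.83 in untreated cells and 9.84, 9.86 and 9.78 at 6 h (-0.19 ± 0.10, adjusted p = 0.195), and 1419313_at differed from no RA by -0.10 to -0.0025 over the 3 RA times. The untreated and 6 h arrays overlapped on both. Without untreated replicate C the first of these passed the threshold at 6 h (-0.29, adjusted p = 0.0322).

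Ccnt2, the gene of cyclin T2, gave calls in both directions on different probe sets. Probe set 1427088_at read 8.72, 8.77 and 9.05 in untreated cells, 8.40, 8.42 and 8.51 at 2 h, 8.44, 8.44 and 8.30 at 4 h, and 8.70, 8.73 and 8.58 at 6 h. The 2 and 4 h arrays lay below all untreated arrays, and the 6 h arrays overlapped them. It fell by 0.40 ± 0.09 at 2 h (adjusted p = 0.0433), the 1 call at that time, and by 0.46 ± 0.09 at 4 h (adjusted p = 0.00375). The 4 h call held under all 22 alternatives, with values from -0.52 to -0.36. The 2 h call held without untreated replicate A or B and was lost without any 1 of the other 10 arrays (adjusted p = 0.0507 to 0.16), with quantile normalization (0.0582), with the replicate block (0.0748) and when only the 2 groups were fitted (0.185).

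Probe set 1427089_at, which carries the same accession in the platform annotation, moved the other way. It read 10.08, 10.00 and 10.34 in untreated cells, 10.10, 10.00 and 9.94 at 2 h, 10.47, 10.34 and 10.38 at 4 h, and 10.41, 10.43 and 10.45 at 6 h. The 6 h arrays lay above all untreated and 2 h arrays. It rose by 0.29 ± 0.09 at 6 h over no RA (adjusted p = 0.0324), a call lost without untreated replicate A (0.26, adjusted p = 0.0959) or B (0.22, adjusted p = 0.125) or any 1 of the 6 h arrays (adjusted p = 0.074 to 0.0843), or when only the 2 groups were fitted (0.107). Without untreated replicate C it also passed at 4 h (0.36, adjusted p = 0.00413).

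Probe set 1453399_at followed 1427089_at (r = 0.79) and was lowest at 2 h: 10.51, 10.23 and 10.46 in untreated cells, 10.01, 10.09 and 9.83 at 2 h, 10.49, 10.50 and 10.47 at 4 h, and 10.69, 10.67 and 10.39 at 6 h. Its 2 h arrays lay below all others. The difference at 2 h was -0.42 ± 0.10 against no RA (adjusted p = 0.0613) and not called. It was called in 6 of 24 alternatives, including the looser threshold of 0.10. Among the others were the fits without dim probe sets (adjusted p = 0.0348) and without untreated replicate B (-0.51, adjusted p = 0.0319). Over 2 h of RA the probe set rose by 0.51 ± 0.10 at 4 h and by 0.61 ± 0.10 at 6 h (adjusted p = 0.00518 and 0.00115). Averaged over the gene's 5 probe sets, these values were 0.09 and 0.23 and not called.

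The Ccnt2 probe set 1435445_at read 8.93, 8.96 and 10.33 in untreated cells, 8.77, 8.93 and 8.79 at 2 h, 8.49, 8.60 and 8.60 at 4 h, and 8.90, 8.94 and 8.87 at 6 h. Untreated replicate C lay 1.38 above the mean of A and B, and the 4 h arrays lay below all others. It fell by 0.85 ± 0.27 at 4 h (adjusted p = 0.0478). Without untreated replicate C the fall was 0.39 (-0.39, adjusted p = 0.00254), and the call was lost without any 1 of the 9 RA arrays (adjusted p = 0.0623 to 0.125), with quantile normalization (0.0532), with trended and robust variance (0.0817) and when only the 2 groups were fitted (0.163). The fifth Ccnt2 probe set, 1452297_at, differed by -0.40 to -0.24 from no RA over the 3 times and was not called.

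Hexim1, the gene of the inhibitor that sequesters P-TEFb with the 7SK RNA, rose on both probe sets. Probe set 1425937_a_at read 9.86, 9.76 and 9.56 in untreated replicates A, B and C, 9.64, 9.65 and 9.78 at 2 h, 10.07, 10.11 and 10.09 at 4 h, and 10.56, 10.22 and 10.21 at 6 h. All 4 and 6 h arrays lay above all untreated and 2 h arrays, which overlapped. Hexim1 rose by 0.36 ± 0.10 at 4 h (1.29-fold, adjusted p = 0.027) and by 0.61 ± 0.10 at 6 h (1.52-fold, adjusted p = 0.00118).

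The second Hexim1 probe set, 1419359_at, read 8.16, 8.20 and 7.79 in untreated cells, 8.11, 8.13 and 8.14 at 2 h, 8.38, 8.50 and 8.37 at 4 h, and 8.75, 8.62 and 8.39 at 6 h. Its 4 and 6 h arrays again lay above all earlier ones, and over the 12 arrays the probe sets had r = 0.94. It rose by 0.37 ± 0.11 at 4 h (adjusted p = 0.0413) and by 0.54 ± 0.11 at 6 h (adjusted p = 0.00502). Both 6 h calls held under every alternative, with values from 0.49 to 0.67 on the first probe set and 0.41 to 0.63 on the second. The 4 h calls did not: the first ended on leaving out untreated replicate B (adjusted p = 0.051) or C (0.28, adjusted p = 0.0799) or any 1 of the 4 h arrays (adjusted p = 0.0641 to 0.0784). The second was lost without untreated replicate C (0.24, adjusted p = 0.114), any 1 of the 2 or 4 h arrays, or 6 h replicate B (adjusted p = 0.0563 to 0.135), with median centring (0.0529), with array weights (0.0523) and when only the 2 groups were fitted (0.0984).

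The Hexim1 window, chr11:103116075-103116374 on the plus strand of GRCm38.p6, is shown because Hexim1 was the only member gene called higher on every probe set at 4 and at 6 h. Capitals mark a CCAAT box read on the opposite strand (ATTGG, at position -243) and a TATAA at -121. It has 61.0% G and C and 21 CpG.
Hexim1: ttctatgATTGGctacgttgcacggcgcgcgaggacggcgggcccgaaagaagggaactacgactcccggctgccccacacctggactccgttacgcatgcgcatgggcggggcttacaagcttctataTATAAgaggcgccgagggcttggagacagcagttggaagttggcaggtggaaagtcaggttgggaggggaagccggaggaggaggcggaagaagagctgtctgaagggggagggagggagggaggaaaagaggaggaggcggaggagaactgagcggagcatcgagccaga

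Between the RA times, calls were made only in comparisons with 2 h. At 4 against 2 h of RA, 6 member probe sets were called, 3 higher and 3 lower, against 16.3% of all probe sets (9.24% higher and 7.09% lower). The lower ones were Aff3 1433939_at (-0.91 ± 0.10, adjusted p = 0.000133), Aff1 1418135_at (-0.62 ± 0.12, adjusted p = 0.00356) and Ell2 1450744_at (-0.43 ± 0.10, adjusted p = 0.0105). The higher ones were Ccnt2 1453399_at and 1427089_at and Hexim1 1425937_a_at (0.40 ± 0.10, adjusted p = 0.0191), the last of which was lost without 2 h replicate A or B or 4 h replicate B or C (adjusted p = 0.0533 to 0.0684). Averaging each gene's probe sets gave -0.54 for Aff3, -0.29 for Aff1 and -0.28 for Ell2, all still called.

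At 6 against 4 h of RA no member probe set was called by limma, against 0.173% of all probe sets. Without untreated replicate C, Ccnt2 1435445_at passed the threshold there (0.34, adjusted p = 0.0297). At 6 against 2 h, 10 were called, 5 higher and 5 lower, against 22.9% of all probe sets (13.0% higher and 9.85% lower). These were Aff1 1418135_at (-0.78 ± 0.12) and 1425640_at (-0.42 ± 0.11), Aff3 1433939_at (-0.90 ± 0.10) and 1430435_at (-0.26 ± 0.07), Ell2 1450744_at (-0.34 ± 0.10), Cdk9 1417269_at, Ccnt2 1453399_at and 1427089_at, and Hexim1 1425937_a_at (0.64 ± 0.10) and 1419359_at (0.46 ± 0.11). The count was 5 without 6 h replicate A. Aff1 1425640_at was lost without 2 h replicate A or B or 6 h replicate A or B (adjusted p = 0.0513 to 0.083), and Aff3 1430435_at without 2 h replicate B or C or 6 h replicate A (adjusted p = 0.068 to 0.0945). Ell2 was lost without 2 or 6 h replicate A or C (adjusted p = 0.055 to 0.112) and on averaging the gene's probe sets (-0.25, adjusted p = 0.0505), and Hexim1 1419359_at without 6 h replicate A (0.38, adjusted p = 0.0542).

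Beside these results stand the members' values in untreated replicate C. The median absolute difference between C and the mean of untreated A and B was 0.23 over the 23 member probe sets and 0.15 over all probe sets, beside 0.07 and 0.11 for A against B. All 5 Ccnt2 probe sets were higher in C, by 0.09 to 1.38, and both Hexim1 probe sets were lower, by -0.25 and -0.39, as were both Ccnt1 probe sets (-0.29 and -0.23). Aff3 1433939_at differed by -0.04. Without C, the counts called against no RA were 0 at 2 h, 7 at 4 h and 9 at 6 h, and 10 at 4 against 2 h of RA. The share of all probe sets called without C is not given here, so these counts do not compare the members with other probe sets.

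**Figure D3:**
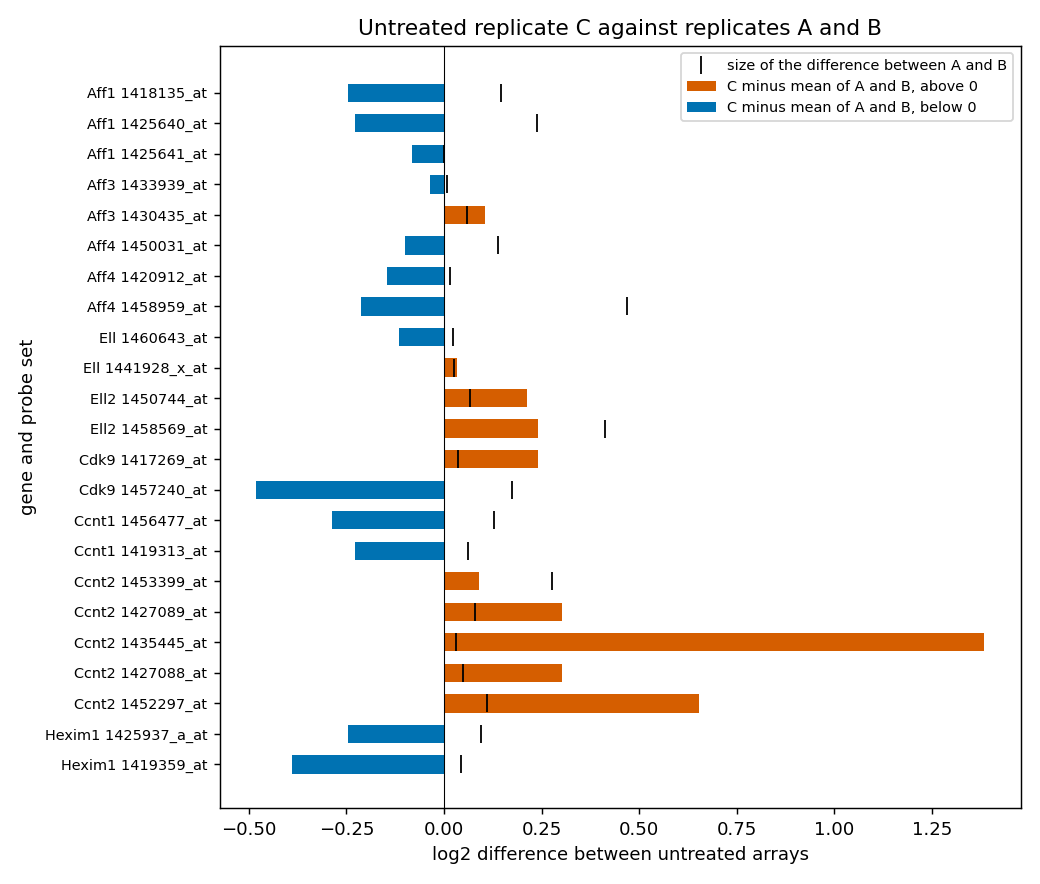
Log2 signal of untreated replicate C minus the mean of untreated replicates A and B for each member probe set (bars, orange above 0 and blue below), beside the absolute difference between A and B (black marks). The Ccnt2 probe set 1435445_at reaches 1.38, all Ccnt2 bars point up and both Hexim1 bars point down, and Aff3 1433939_at lies at -0.04.

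Over the 12 arrays the log2 signals of the Aff3 and Ell2 main probe sets correlated at r = 0.86, those of Aff3 and Aff1 at 0.82, and those of Aff3 and Hexim1 (1425937_a_at) at -0.87. These are descriptions: the arrays share 4 group means, and the genes were chosen with these values known. Among 11689 other genes above the array median, the 5 whose signal was most like that of Aff3 over the 12 arrays were Mipol1 and Tbc1d5 (both r = 0.987), Acrbp (0.985), Fbxl17 (0.984) and Pcbp3 (0.983). All were lower at 4 h, Mipol1 by the most (-1.90 ± 0.13) and Tbc1d5 by the least (-0.57 ± 0.07). For Aff1 they were Zxdc (0.977), Brd1 (0.971), Tmem192 (0.968), Dazap2 (0.967) and Mtss1 (0.965), which at 6 h ranged from -0.22 ± 0.07 (Tmem192) to -0.52 ± 0.10 (Mtss1). The genes most like Aff3 and Aff1 were picked by likeness over these same arrays, so their falls are no separate result.

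The windows of all 10 members, 11 in number, had 59.7% to 83.3% G and C and 9 to 54 CpG, where the median of 32851 RefSeq windows of the same length was 52.7% and 7. Both strands of each window were searched for direct repeats of AGGTCA or AGTTCA in any mix with a spacer of 5 or of 2 bases (RA response elements, each form in 0.0396% of all windows), for TGACGTCA (1.79%), for CCAAT (37.4%) and for TATAA (24.9%). No member window held either repeat. The window of Cyp26a1, searched for comparison, held 1 with a spacer of 5, read on the opposite strand as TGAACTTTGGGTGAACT. CCAAT was found in the windows of Ell2, Ell3, Cdk9, Ccnt2 and Hexim1 and TATAA in that of Hexim1 alone among the members. A match is a run of letters and not a shown binding site, and no match speaks only of these windows.

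The other genes of the elongation machinery were read from 8 lists with 50 genes, of which 46 were analysed here, each by the brightest probe set named for it alone. None was called at 2 h, against 2.03% of 18193 genes, a count that reached 2 without untreated replicate C. At 4 h, 9 were higher and 4 lower, against 11.2% and 12.5% of genes. At 6 h, 9 were higher and 3 lower, against 13.3% and 13.1%. Their median log2 difference was 0.02 at 4 h and 0.06 at 6 h, beside 0.0023 and -0.01 over all genes. Over 22 alternatives the number called ran from 6 to 16 at 4 h and from 10 to 16 at 6 h.

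Mllt3 encodes AF9, a YEATS-domain reader of acylated histones that docks the super elongation complex, and its log2 difference was the largest on the brightest probe sets of these related genes. Its brightest probe set read 6.24, 6.47 and 6.49 in untreated cells, 6.22, 6.29 and 6.39 at 2 h, 4.73, 4.60 and 4.81 at 4 h, and 4.62, 4.65 and 4.64 at 6 h. Every 4 and 6 h array lay below every earlier one. The difference in deposited signal was -1.69 ± 0.08 at 4 h and -1.77 ± 0.08 at 6 h (adjusted p = 2.18e-07 and 1.17e-07), called under all 20 alternatives. The 4 and 6 h values lie under the array median and may be largely background, which was not tested, so the call gives a direction and these differences do not measure the size of the change in RNA. The other Mllt3 probe sets, dimmer, differed by -0.66 and -1.09 at 4 h (both called) and by -0.22 (not called) and -1.07 (called) at 6 h. None of the other 4 partner genes (Mllt1, Eaf1, Eaf2 and Aff2) was called against no RA.

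Hexim2, the paralogue of Hexim1, rose by 0.50 ± 0.13 at 4 h and 0.66 ± 0.13 at 6 h (adjusted p = 0.0164 and 0.00263), and its other probe set was called higher too (0.33 and 0.57). The 4 h call was lost without untreated replicate A or B or 4 h replicate B or C, or when only the 2 groups compared were fitted (adjusted p up to 0.086). It was the 1 gene called of 5 measured in the list of 7SK particle and BET proteins at either time on the brightest probe sets. Among the other probe sets of that list, 1 of Brd2 was called lower at 4 and 6 h (-0.69 ± 0.18 and -0.61 ± 0.18, adjusted p = 0.0178 and 0.0294), where the brightest one was not called (-0.31 and -0.28), and 1 of Larp7 was called higher at 6 h (0.30 ± 0.09, adjusted p = 0.036).

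Of the 7 genes of the PAF1 complex, which travels with elongating polymerase, and its partner Spt6, 4 were called higher at 4 and at 6 h and none lower. Of all genes by the brightest probe set, 11.2% and 13.3% were called higher and 12.5% and 13.1% lower at these times. The 4 were Paf1 (0.33 ± 0.09 and 0.43 ± 0.09), Ctr9 (0.21 ± 0.06 and 0.41 ± 0.06), Leo1 (0.32 ± 0.07 and 0.40 ± 0.07) and Cdc73 (0.36 ± 0.08 and 0.43 ± 0.08). Leo1 was called under all 22 alternatives at both times, while Ctr9 at 4 h was lost in 12 of 21 and Paf1 at 4 h in 4 of 22, among them those without untreated replicate C or 4 h replicate B or C. Ctr9 rests on 1 of 5 probe sets. Averaging them gave 0.03 at 4 h (adjusted p = 0.845) and 0.17 at 6 h (adjusted p = 0.135), neither called. Cdc73 rests on 1 of 7 probe sets: another was called lower at 6 h (1427972_at, -0.25 ± 0.07), and the mean of its probe sets was -0.0013 at 6 h.

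The remaining lists gave 1 or 2 calls each on the brightest probe sets. Over all 8 lists, 8 genes with no call at 4 or 6 h on the brightest probe set were called on another one, the largest difference being that of Mllt6 (1.38 ± 0.15 at 4 h and 0.90 ± 0.15 at 6 h), which is named after its values were seen. The brightest Mllt6 probe set was called lower at 4 h without untreated replicate C (-0.36, adjusted p = 0.0127). Among the 8, Cdk12 had 1 higher and 1 lower call. The share of all genes called only on another probe set is not given here, so the count of 8 is a description. Zc3h8, of the little elongation complex, rose by 0.49 ± 0.06 and 0.44 ± 0.06 at 4 and 6 h. Nelfb, a subunit of the pausing factor NELF, fell by 0.34 ± 0.08 and 0.27 ± 0.08, the 6 h call being lost without untreated replicate C or 6 h replicate A or B, or when only the 2 groups were fitted (adjusted p up to 0.11). Among other elongation factors Tcea3 fell by 0.46 ± 0.09 and 0.53 ± 0.09 and Gtf2f1 rose by 0.31 ± 0.07 and 0.40 ± 0.07.

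Men1, which encodes menin of the MLL complexes, rose by 0.26 ± 0.06 at 4 h and 0.39 ± 0.06 at 6 h. Of the other transcription kinases and cyclins Ccnc, the cyclin of the Mediator kinase, rose by 0.28 ± 0.08 and 0.32 ± 0.08, and Mnat1 was lower at 4 h alone (-0.19 ± 0.06, adjusted p = 0.0488), a call lost in 15 of 22 alternatives. The 4 h calls of Ccnc and Men1 were lost without untreated replicate B or with only the 2 groups fitted, and that of Ccnc also without untreated replicate A or 4 h replicate A.

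**Figure D4:**
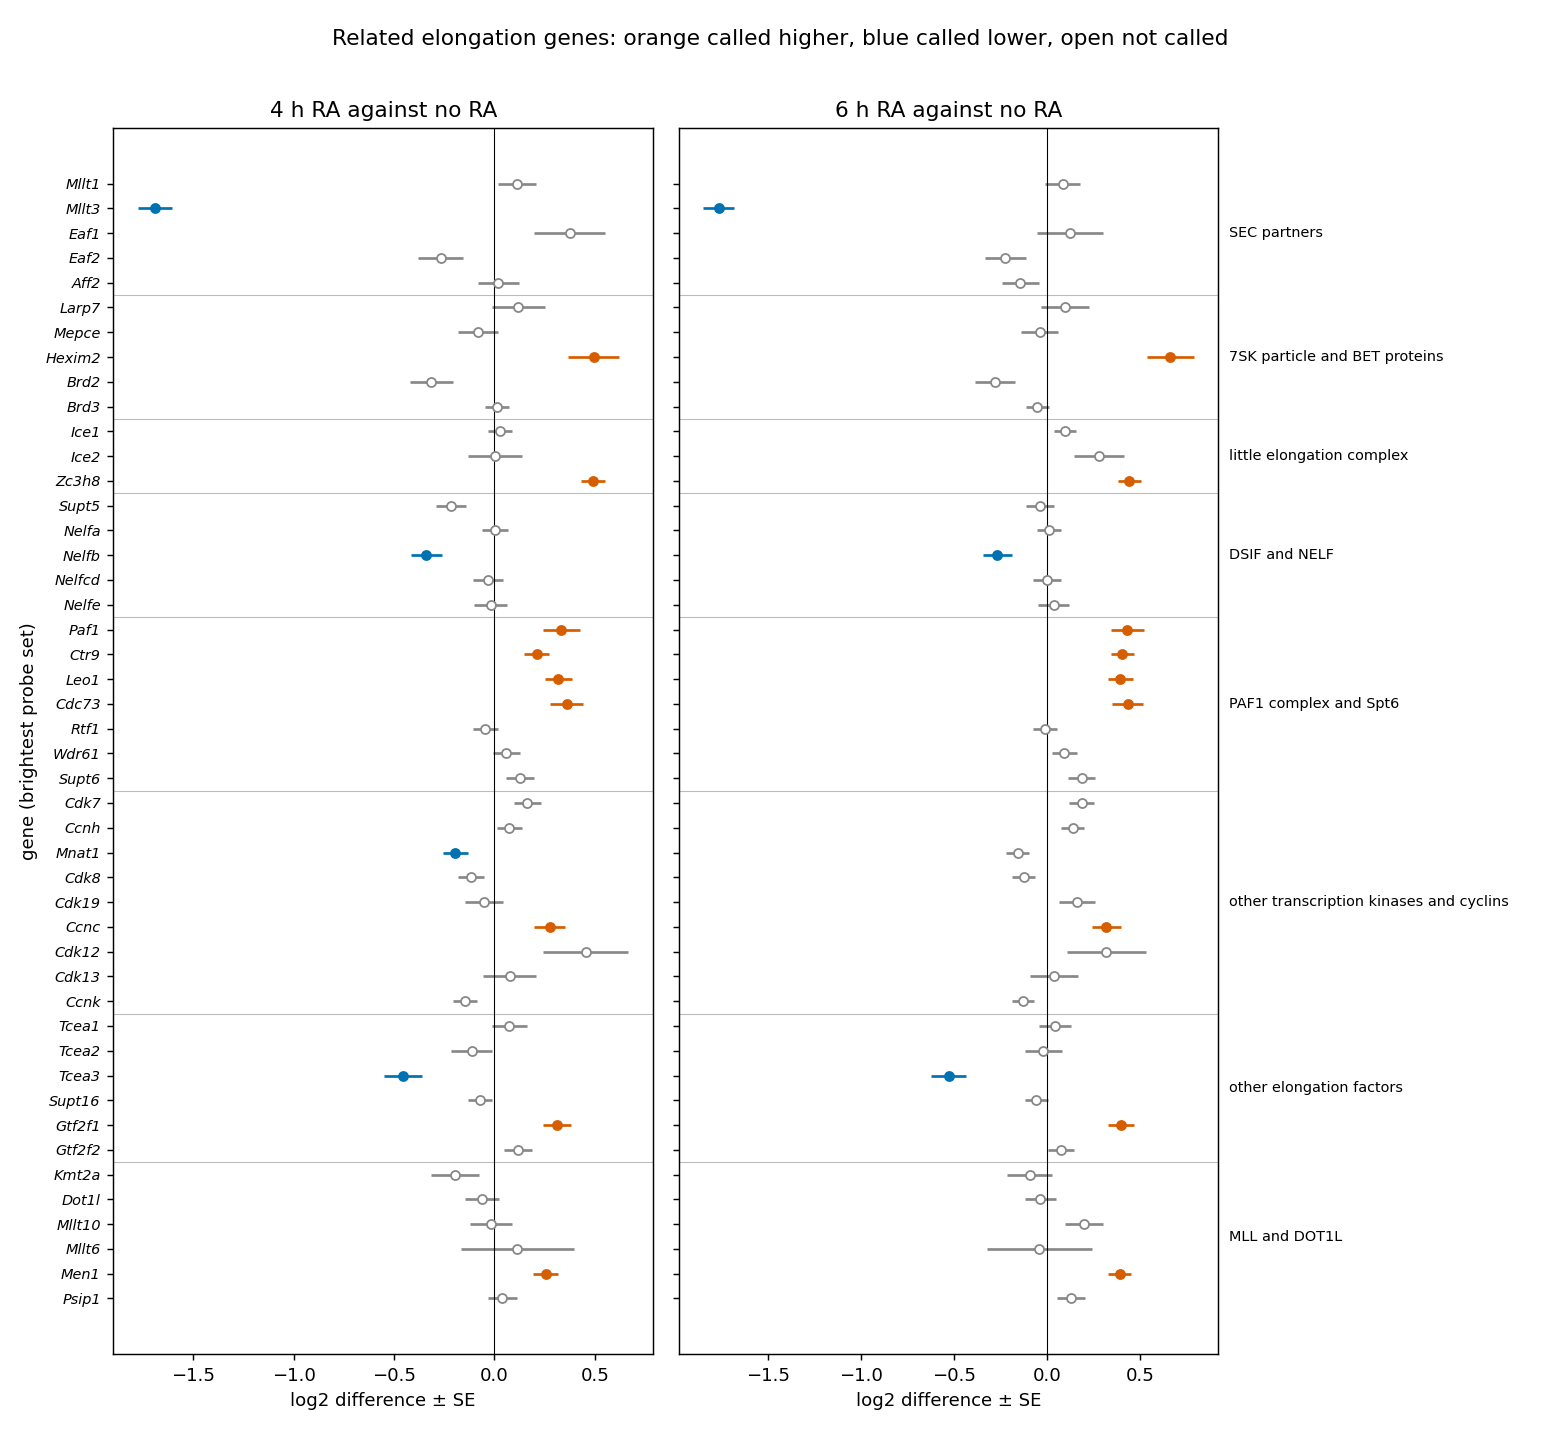
Log2 difference with SE for the 46 measured related genes, by list, at 4 and 6 h of RA against no RA; filled points passed the adjusted p threshold of 0.05. Mllt3, whose 4 and 6 h values lie under the array median, stands apart at -1.69 and -1.77, and the 4 called PAF1 complex genes lie between 0.21 and 0.43.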

How the data were processed

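RNA of 12 samples was hybridised to Affymetrix mouse expression arrays, 200 ng each, labelled with biotin. The authors deposited log2 signal (the scale per the labels) of 45101 probe sets an array. Their tool is given as limma 3.4.3 in the submitters' processing notes, and the normalization method is not given in the sources used here. No further normalization was applied. The 64 control probe sets were left out and 4 group means were fitted to the other 45037 by lmFit and eBayes of limma (version 3.58.1, R 4.3.3), with 8 residual degrees of freedom and 4.23 from the prior. The 6 contrasts and the F test were called where the p adjusted by Benjamini and Hochberg over all probe sets was under 0.05. Differences are RA time minus no RA, or later minus earlier RA time, with the SE of the fit.

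Probe sets were named from the platform annotation: 34945 for 1 gene, 932 for several and 9160 for none. Every member probe set is described. Of each related list up to 4 called genes with the largest difference were named, and of the 2 members with the widest range of group means the 5 most similar genes. The members, lists and rules were chosen with earlier results of these data known.

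Having 3 arrays per group limits the precision. Samples of the same letter in different groups did not in general deviate together (18 pairs, correlations -0.16 to 0.26, median 0.01), beside 36 other pairs (-0.23 to 0.20, median -0.0028). Of the 18, 4 lay over 0.1. These 4 were untreated replicate C with C at 4 h (0.13) and at 6 h (0.16), and 4 h with 6 h for replicate A (0.19) and for C (0.26). Several of the 36 other pairs also lay over 0.1, such as untreated replicate B with C at 2 h (0.20) and with A at 6 h (0.17). The labels do not say what a shared letter marks, and the letter was used as a block only as an alternative. Alternatives were other thresholds, quantile normalization, median centring, gene-level summaries (brightest or mean probe set), filters on dim or cross-hybridising probe sets, trended and robust variance, array weights, the replicate block, fitting only the groups compared, and leaving out each array. Promoter windows came from RefSeq (GRCm38.p6). The fit was tested on simulated data. Python 3.11.15 and matplotlib 3.10.9 drew the figures.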

Additional observations from a re-analysis of the deposited data

Results flagged for a closer look

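The response of 16 member values differed between RA times, taken as the difference of 2 effects against the same untreated arrays (limma adjusted p under 0.05 over all probe sets). The untreated mean cancels, so these are the 6 calls at 4 against 2 h and the 10 at 6 against 2 h given above and no separate test. A probe set called in both counts 2 times. Of all probe sets 16.3% and 22.9% were called, and the member calls lost on leaving out 1 array are given above. Between 4 and 2 h of RA the difference was -0.62 for Aff1 1418135_at, -0.91 for Aff3 1433939_at and -0.43 for Ell2 1450744_at, and 0.51 and 0.38 for Ccnt2 1453399_at and 1427089_at and 0.40 for Hexim1 1425937_a_at. Between 6 and 2 h it was -0.78 and -0.42 for Aff1 1418135_at and 1425640_at, -0.90 and -0.26 for Aff3 1433939_at and 1430435_at, and -0.34 for Ell2 1450744_at. On the higher side at 6 against 2 h it was 0.25 for Cdk9 1417269_at, 0.61 and 0.42 for Ccnt2 1453399_at and 1427089_at, and 0.64 and 0.46 for Hexim1 1425937_a_at and 1419359_at.

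The probe set assigned to both Serinc4 and Ell3, which entered no count, lay 0.82 and 0.72 log2 units under untreated cells at 4 and 6 h (-0.82 and -0.72). Single outlying arrays were not tested within groups of 3.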

How the results depend on the processing

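Of the 31 called differences of member probe sets, 19 stayed called on leaving out any 1 array and 13 under every alternative, and none of the 31 changed sign. Some differences that were not called did change sign, such as Ccnt2 1453399_at at 4 h against no RA (-0.27 to 0.14). The limits are 3 arrays a group, the untreated replicate C and values near background on the dim probe sets. The count at 2 h (1) became 0 at an adjusted p under 0.01, 2 at 0.10, 0 with quantile normalization, 0 on averaging the probe sets of each gene, 2 without dim probe sets, 2 with trended and robust variance, 0 with the replicate block and 0 with only the 2 groups fitted. The count at 4 h (7) became 4 at an adjusted p under 0.01, 4 of 9 genes by the brightest probe set, 3 of 9 by the mean and 4 with only the 2 groups fitted. The count at 6 h (7) became 4 of 9 by the brightest probe set and 3 of 9 by the mean. At 4 against 2 h of RA (6) it became 3 at 0.01 and 10 with only the 2 groups fitted. At 6 against 2 h (10) it became 5 at 0.01, 6 of 9 by the brightest probe set and 3 of 9 by the mean, and under the F test (9) 4 of 9 by the mean. The gene-level counts are out of 9 genes and the main counts out of 23 probe sets, so they are not on the same scale. By the brightest probe set the count at 4 against 2 h of RA stayed at 6. The cause of the changes was not tested. Shares of all probe sets called under the alternatives are not given here, so the counts do not compare the members with other probe sets. Leaving out 1 array gave 0 to 2 at 2 h, 4 to 7 at 4 h (4 without any 1 of the 4 h arrays) and 5 to 9 at 6 h. It gave 5 to 10 at 4 against 2 h, 0 to 1 at 6 against 4 h, 5 to 11 at 6 against 2 h and 8 to 12 under the F test. The highest at 2 h came without untreated replicate B, and that at 4 h without untreated replicate A or C. Each of the other highest counts came without untreated replicate C. With the replicate block the counts were 0, 7 and 7 against no RA, 6, 0 and 9 between RA times and 9 under the F test. That block lost the 2 h call of Ccnt2 1427088_at and the call of Cdk9 1417269_at at 6 against 2 h (0.25, adjusted p = 0.0508), and no other member call. Counting the probe set shared with Serinc4, an alternative chosen after seeing the data, gave 1, 8 and 8 against no RA. Of the related genes, whose alternatives were also added later, Cdc73 at 6 h turned to -0.0013 with the mean of its probe sets (0.43 on the brightest). The brightest Mllt6 probe set at 4 h (0.11, not called) reversed to a lower call without untreated replicate C (-0.36, adjusted p = 0.0127). Without untreated replicate A it read 0.36 and was not called (adjusted p = 0.458).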
